A study of Mus musculus with 13 samples.

Results

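The mRNAs of 10 tubulin genes, 6 for beta-tubulin (Tubb6, Tubb5, Tubb2a, Tubb2b, Tubb3, Tubb4b) and 4 for alpha-tubulin (Tuba1a, Tuba1b, Tuba1c, Tuba4a), were followed in NK cells of the mouse, both liver-resident (LrNK) and conventional (cNK). They were taken by Ensembl identifier from 54532 counted identifiers, and the set was chosen by the CPM of Tubb6 (CPM are counts scaled to the same total in every sample), which separated LrNK from cNK in these libraries under both labels. The values of LrNK against cNK below therefore describe the choice and carry no test. The groups were LrNK labelled CD8KO, LrNK WT, cNK labelled CD8KO and cNK WT. The titles of the cNK libraries in the CD8KO group read CD8, without KO, while their genotype label reads CD8KO. All mice were C57BL/6J aged 8 to 10 weeks, the WT libraries carrying the label B6. LrNK were sorted from liver lymphocytes and cNK from splenocytes, so organ and cell type changed together and cannot be told apart. The title of the series concerns CD8+ T cells, LrNK maturation and the CD70-CD27 axis, and the label comparison asks what differed where the label says that CD8 is missing.

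Microtubules are polymers of alpha-tubulin and beta-tubulin dimers, and each subunit is encoded by several genes, called isotypes, whose products differ mostly in the acidic tail at the carboxyl end. The tail faces outward and is where motors, severing enzymes and enzymes that add glutamate or remove tyrosine act. In NK cells microtubules carry lytic granules to the contact with a target cell. Free tubulin dimers also lower the stability of tubulin mRNAs, so the mRNA level of the family is under feedback.

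The data were 13 libraries of gene counts, with totals of 35910292 to 47655853 counts in LrNK labelled CD8KO, 30578631 to 42986589 in LrNK WT, 48600875 to 59670243 in cNK labelled CD8KO and 53519657 to 72716020 in cNK WT. LrNK labelled CD8KO libraries 2 and 3 differed by a chi-square of 2.67 per degree of freedom and LrNK WT libraries 2 and 4 by 3.04, against 196 to 283 for the other LrNK pairs. Each close pair was summed and counted as 1 sample, which left 2, 3, 3 and 3 samples in the 4 groups. Nothing in the labels says that samples came from separate animals, so a p-value measures the spread between these samples, which may be technical. LrNK samples fell apart by the number of genes with a count: LrNK labelled CD8KO 1 had 15797, LrNK WT 1 had 15159 and LrNK WT 3 had 13917, against 19896 to 22921 in the other LrNK libraries and 22250 to 22778 in cNK libraries. Cd8a, which encodes the CD8 alpha chain, had 41.6 and 43.7 CPM in LrNK labelled CD8KO, 20.5, 20.1 and 20.5 in LrNK WT, 87.3, 85.9 and 109 in cNK labelled CD8KO, and 0.568, 0.578 and 0.561 in cNK WT. The libraries labelled CD8KO thus held more Cd8a counts than WT in both cell types, the opposite of a loss of Cd8a mRNA. Counts per gene do not show whether an intact transcript or CD8 protein was made, and the label itself was not tested. Every direction by label below is between libraries as labelled. The LrNK markers Itga1, Cxcr6, Tnfsf10 and Il7r summed to 522.2 to 689.2 CPM in LrNK labelled CD8KO and 767.9 to 1245 in LrNK WT, against 91.16 to 111.1 in cNK labelled CD8KO and 79.87 to 96.55 in cNK WT. The cNK markers Itga2, Eomes, S1pr5 and Itgam summed to 103.1 to 146.0 and 54.39 to 87.04 CPM in those LrNK groups, against 1804 to 1903 and 1834 to 1944 in the cNK groups. The NK markers Ncr1, Klrb1c, Nkg7, Prf1 and Tbx21 summed to 1819 to 2425 CPM in LrNK labelled CD8KO and 2680 to 3475 in LrNK WT, against 5419 to 5608 in cNK labelled CD8KO and 5235 to 5570 in cNK WT.

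The last 60 coding bases before the stop codon, which encode the tail, are shown for 4 beta-tubulins and for Tuba4a, because the tail is where isotypes differ most and because near-identical genes can trade reads. They were read from the GRCm38 genome with GENCODE M21 coordinates, 5′ to 3′ on the coding strand, with in-frame glutamate codons (GAA or GAG) in capitals. The beta-tubulin tails come first.
Tubb5, chr17:35834985-35835044, minus strand: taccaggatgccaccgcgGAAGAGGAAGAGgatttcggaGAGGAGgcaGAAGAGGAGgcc
Tubb2a, chr13:34074471-34074530, minus strand: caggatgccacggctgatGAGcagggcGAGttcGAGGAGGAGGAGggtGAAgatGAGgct
Tubb2b, chr13:34127474-34127533, minus strand: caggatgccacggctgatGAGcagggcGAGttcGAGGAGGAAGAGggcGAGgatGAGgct
Tubb4b, chr2:25222311-25222370, minus strand: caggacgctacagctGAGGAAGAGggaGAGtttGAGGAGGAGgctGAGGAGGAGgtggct
Tuba4a, chr1:75215625-75215684, minus strand: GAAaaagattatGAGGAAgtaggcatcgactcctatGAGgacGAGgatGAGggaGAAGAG
Of these 20 codons, 10 encode glutamate in Tubb4b, 9 in Tubb5 and 8 in Tubb2a, Tubb2b and Tuba4a. Tuba4a ends in a glutamate codon and so encodes no final tyrosine, the residue that tubulin carboxypeptidases remove from other alpha-tubulins.

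How far a count belongs to its isotype also differs between these genes, as the bars of shared sequence show. Of the 50-base words in the longest transcript, 0% in Tubb6 and in Tubb3 and 0.115% in Tubb5 occurred in a transcript of another gene. The share was 49.6% in Tubb2a and 39.3% in Tubb2b, mostly with each other, and their coding sequences are 96.5% identical. It was 55.5% in Tubb4b, mostly with its pseudogene Tubb4b-ps1. Tuba1a shared 75.5%, Tuba1b 83.1% and Tuba1c 61%, and their coding sequences were 97.1 to 98.3% identical to one another. Tuba4a shared 48.8%, nearly all of it with Stk16, a kinase gene on the opposite strand whose exons cover 1379 bases of Tuba4a exon (37.3%), all beyond the stop codon of Tuba4a. How multiply matching reads were counted is not given in the sources used here. The name of the library kit, Illumina TruSeq, does not by itself say whether strand was kept. The values of Tubb2a, Tubb2b, Tubb4b, Tuba1a, Tuba1b, Tuba1c and Tuba4a are therefore uncertain to that extent.

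Tubb6 (ENSMUSG00000001473, GRCm38 chr18:67390717-67402749, plus strand), the class V beta-tubulin, a minor isotype in most tissues, was the member by which the cell types stood apart. It had 161 and 143 CPM in LrNK labelled CD8KO, 144, 139 and 164 in LrNK WT, 12.1, 11.5 and 12.5 in cNK labelled CD8KO, and 12.1, 11.1 and 11.6 in cNK WT. All 5 LrNK samples lay above all 6 cNK samples with no overlap. The means were 152 ± 12.7 CPM in LrNK labelled CD8KO (SD, n = 2) and 149 ± 13.0 in LrNK WT (SD, n = 3), against 12.1 ± 0.513 in cNK labelled CD8KO and 11.6 ± 0.502 in cNK WT (SD, n = 3 each). The ratio of LrNK to cNK was 12.6 for the CD8KO label and 12.8 for WT. In the edgeR fit of all 4 groups this was a log2 difference of 3.76 for the CD8KO label and 3.74 for WT. Of 19287 genes tested, 1315 (6.82%) under the CD8KO label and 1088 (5.64%) in WT had a log2 difference at least as high.

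Tubb6 was also the most even member among the LrNK samples. Its coefficient of variation (SD as a percent of the mean) was 7.55% over the 5 LrNK samples and 4.39% over the 6 cNK samples, where the other members with counts in every sample ranged from 14.7% (Tuba1b) to 110.0% (Tubb2b) in LrNK. The samples with few detected genes were slightly higher in Tubb6: LrNK labelled CD8KO had 161 CPM in its sample with few and 143 in its sample with many, and LrNK WT had 154 on average in its 2 samples with few and 139 in its sample with many. In a bulk sample, more cells with the transcript and more transcript per cell cannot be told apart.

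**Figure D1:**
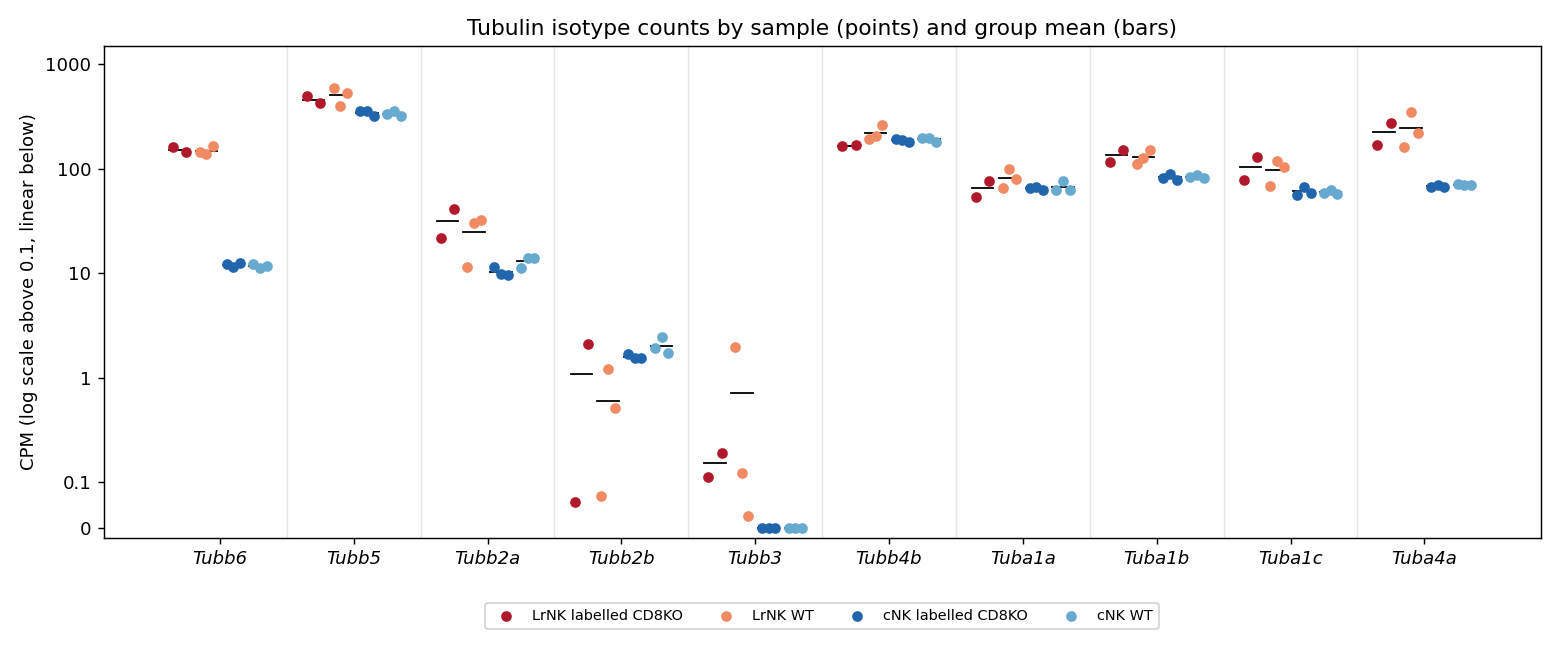
CPM of each tubulin isotype in every sample (points) with the group mean (black bars), on an axis that is logarithmic above 0.1 CPM and linear below. Tubb6 lies at 139 to 164 CPM in the 5 LrNK samples and at 11.1 to 12.5 in the 6 cNK samples, while Tubb4b and Tuba1a overlap between cell types in at least 1 label.

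Tubb5 (ENSMUSG00000001525, chr17:35833921-35838306, minus strand), the class I beta-tubulin used by most dividing cells, had 492 and 426 CPM in LrNK labelled CD8KO, 593, 399 and 533 in LrNK WT, 356, 354 and 321 in cNK labelled CD8KO, and 333, 359 and 322 in cNK WT. Every LrNK sample was above every cNK sample, by a ratio of means of 1.34 for the CD8KO label and 1.5 for WT. Tubb4b (ENSMUSG00000036752, chr2:25222160-25224702, minus strand), the class IVb beta-tubulin found in nearly all cells and abundant in cilia, had 165 and 168 CPM in LrNK labelled CD8KO, 194, 205 and 261 in LrNK WT, 192, 190 and 180 in cNK labelled CD8KO, and 197, 199 and 179 in cNK WT. Its log2 difference was -0.06 for the CD8KO label, with both LrNK samples below the cNK samples, and 0.26 for WT, with overlapping groups.

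Tubb2a (ENSMUSG00000058672, chr13:34074274-34078007, minus strand) and Tubb2b (ENSMUSG00000045136, chr13:34126748-34130466, minus strand) are the neighbouring class II genes, best known from neurons. Tubb2a had 21.5 and 41.0 CPM in LrNK labelled CD8KO, 11.5, 30.2 and 32.6 in LrNK WT, 11.5, 9.80 and 9.61 in cNK labelled CD8KO, and 11.3, 13.9 and 14.1 in cNK WT. LrNK WT 1 lay within the cNK range while the other LrNK samples lay above it. The log2 difference was 1.72 for the CD8KO label and 0.98 for WT, and for the CD8KO label it was 1.11 without LrNK labelled CD8KO 2. Tubb2b had 0.0557 and 2.11 CPM in LrNK labelled CD8KO, 0.0705, 1.21 and 0.512 in LrNK WT, 1.69, 1.54 and 1.54 in cNK labelled CD8KO, and 1.94, 2.43 and 1.70 in cNK WT. These LrNK values rest on 2 and 189 counts under the CD8KO label and on 3, 89 and 20 in WT, and the samples with the lowest values had few detected genes. For the CD8KO label the log2 difference of Tubb2b was -0.40 with both LrNK samples, 0.54 without sample 1 and -4.73 without sample 2, so 1 sample set its direction.

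Tubb3 (ENSMUSG00000062380, chr8:123411424-123422015, plus strand), the class III isotype that marks neurons, was close to absent. It had 4 and 17 counts in LrNK labelled CD8KO, or 0.111 and 0.190 CPM. LrNK WT had 84, 9 and 1 counts, or 1.97, 0.122 and 0.0256 CPM, and all 6 cNK samples had 0. LrNK WT 1 alone held most of the Tubb3 counts. Against a floor of 3 counts per cNK library, the mean was at least 2.77-fold higher in LrNK labelled CD8KO and at least 15.3-fold higher in LrNK WT. Without LrNK WT 1, the mean in LrNK WT was 0.074 CPM, or 1.6 times that floor.

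Among alpha-tubulins, Tuba4a (ENSMUSG00000026202, chr1:75214228-75219865, minus strand), an isotype abundant in platelets, muscle and brain, differed most between the cell types. It had 169 and 276 CPM in LrNK labelled CD8KO, 162, 349 and 218 in LrNK WT, 67.1, 69.6 and 67.3 in cNK labelled CD8KO, and 71.4, 69.7 and 69.4 in cNK WT. Every LrNK sample was above every cNK sample, with a log2 difference of 1.83 for the CD8KO label and 1.87 for WT. The spread was unequal, with a coefficient of variation of 33.5% in LrNK and 2.36% in cNK. Stk16, which overlaps Tuba4a, had 47.0 and 46.2 CPM in LrNK labelled CD8KO, 58.4, 45.5 and 92.7 in LrNK WT, 53.9, 54.8 and 57.6 in cNK labelled CD8KO, and 55.3, 53.9 and 53.7 in cNK WT. Its log2 difference was -0.14 for the CD8KO label and 0.32 for WT.

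Tuba1a (ENSMUSG00000072235, chr15:98949837-98953703, minus strand), Tuba1b (ENSMUSG00000023004, chr15:98931425-98934565, minus strand) and Tuba1c (ENSMUSG00000043091, chr15:99029891-99038110, plus strand) lie close together, Tuba1a being the main alpha-tubulin of developing neurons and Tuba1b and Tuba1c being widely used. Tuba1b had 116 and 153 CPM in LrNK labelled CD8KO, 111, 126 and 150 in LrNK WT, 82.2, 89.8 and 78.8 in cNK labelled CD8KO, and 83.5, 87.2 and 80.7 in cNK WT. Tuba1c had 78.5 and 129 CPM in LrNK labelled CD8KO, 67.8, 118 and 105 in LrNK WT, 56.5, 67.2 and 59.0 in cNK labelled CD8KO, and 58.8, 62.2 and 57.3 in cNK WT. For both genes each LrNK sample was above the cNK samples of its label, with ratios of means of 1.61 and 1.54 for Tuba1b and of 1.71 and 1.63 for Tuba1c under the CD8KO label and in WT. Tuba1a had 53.7 and 76.8 CPM in LrNK labelled CD8KO, 64.8, 98.8 and 80.2 in LrNK WT, 66.0, 66.9 and 62.0 in cNK labelled CD8KO, and 62.6, 75.7 and 62.0 in cNK WT. Its groups overlapped under both labels, with log2 differences of 0.12 for the CD8KO label, -0.22 without LrNK labelled CD8KO 2, and 0.35 for WT.

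Counted over the set, 7 of 10 members lay wholly higher in LrNK than in cNK for the CD8KO label, where 22.1% of all genes tested did, and 6 of 10 for WT, where 14.8% did. The 6 that did so under both labels were Tubb6, Tubb5, Tubb3, Tuba1b, Tuba1c and Tuba4a, beside 11.0% of all genes. For Tubb3 this rests on 1 count in LrNK WT 3 against 0 in cNK, under the floor of 3 counts, and Tubb3 passed the filter on low counts through LrNK alone. Tubb4b lay wholly lower in LrNK for the CD8KO label and Tubb2b for WT, beside 36.6% and 30.2% of all genes, and no member did so under both labels (22.0% of all genes). The median log2 difference of the members was 0.84 for the CD8KO label and 0.73 for WT, beside -0.049 and -0.074 over all genes, and 0.84 and 0.73 again with Tubb3 at its bound. Since Tubb6 set the choice of the family on this contrast, the counts describe the set only.

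**Figure D2:**
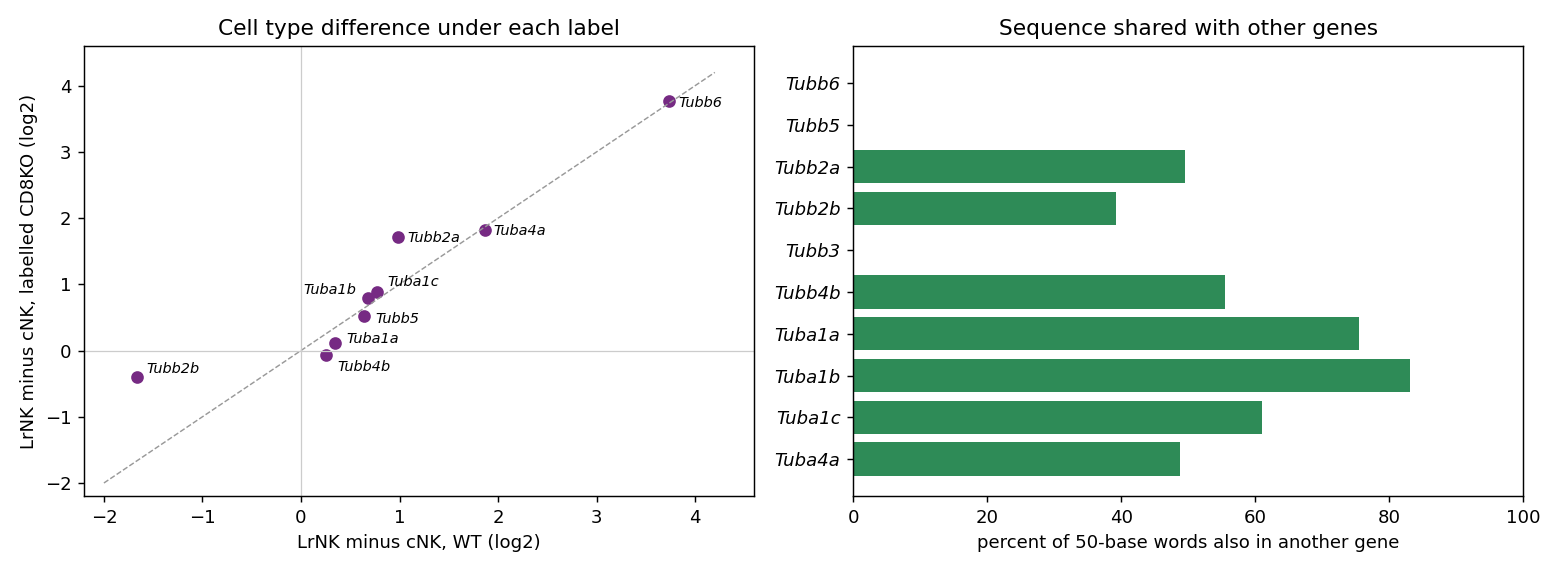
Left, log2 difference of LrNK minus cNK for each isotype, WT on the horizontal axis and the CD8KO label on the vertical axis, with the line of equal values dashed and Tubb3, at 0 in cNK, left out. Right, percent of 50-base words of each longest transcript that also occur in another gene, 0% for Tubb6 and 83.1% for Tuba1b.

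Levels of different genes were compared per length, as CPM per kb of exon. In LrNK WT, Tubb5 averaged 152.7, Tubb4b 105.4, Tuba1b 68.8, Tuba4a 65.7, Tubb6 61.1, Tuba1a 45.1, Tuba1c 42.4, Tubb2a 15.4, Tubb3 0.379 and Tubb2b 0.261 CPM per kb. In cNK WT the order was Tubb5 at 101.5, Tubb4b at 91.7, Tuba1b at 44.7, Tuba1a at 37.0, Tuba1c at 26.0, Tuba4a at 18.96, Tubb2a at 8.14, Tubb6 at 4.76 and Tubb2b at 0.882 CPM per kb. Neighbours in the cNK WT order did not overlap between samples. In LrNK WT, Tubb5 overlapped Tubb4b, Tuba1b, Tuba4a and Tubb6 overlapped in turn, and so did Tuba1a and Tuba1c, with Tuba4a ranging from 43.8 to 94.4 CPM per kb. The other neighbours there did not overlap down to Tubb2a: Tubb4b stayed above Tuba1b, Tubb6 (57.0 to 67.1 CPM per kb) above Tuba1a (35.9 to 54.8), and Tuba1c (29.7 to 51.7) above Tubb2a (7.15 to 20.2). Tubb6 thus stood among the main isotypes in LrNK WT and next to last of those with counts in cNK WT. With the longest transcript as length, Tubb5 (121.4 to 135.3 CPM per kb) overlapped Tubb4b (111.8 to 124.4) in cNK WT, and Tuba4a (mean 85.6) and Tubb6 (84.7) stood above Tuba1b (74.0) in LrNK WT.

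The make-up of each subunit pool was described by the share of each isotype in the summed CPM per kb of its family. Tubb6 made up 20.8 ± 1.12% of beta-tubulin in LrNK labelled CD8KO (SD, n = 2) and 18.3 ± 0.976% in LrNK WT (SD, n = 3), against 2.42 ± 0.199% in cNK labelled CD8KO and 2.31 ± 0.182% in cNK WT (SD, n = 3 each). Tubb4b made up 26.6% and 31.4% in those LrNK groups, against 43.7% and 44.3% in the cNK groups, without overlap between cell types. Tubb5 made up 45.9% and 45.4% of beta-tubulin in the LrNK groups, against 50.4% and 49.0% in the cNK groups, and LrNK WT 1, at 52.7%, lay above every cNK sample.

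Among alpha-tubulins, Tuba4a made up 27.9 ± 1.81% in LrNK labelled CD8KO (SD, n = 2) and 29.0 ± 5.45% in LrNK WT (SD, n = 3), against 14.7 ± 0.492% in cNK labelled CD8KO and 15.0 ± 0.867% in cNK WT (SD, n = 3 each). Tuba1a made up 17.0% and 20.4% in the LrNK groups, against 28.7% and 29.2% in the cNK groups. The shares of Tuba1b and Tuba1c overlapped between cell types over both labels, with means of 34.0% and 21.1% in LrNK labelled CD8KO, 31.7% and 18.9% in LrNK WT, 35.5% and 21.2% in cNK labelled CD8KO, and 35.3% and 20.5% in cNK WT. Among the abundant isotypes, the shares that differed between all LrNK and all cNK samples without overlap were those of Tubb6 and Tuba4a, higher in LrNK, and of Tubb4b and Tuba1a, lower in LrNK. So did the traces of Tubb3, at 0% in cNK, and Tubb2b, at most 0.314% in LrNK and at least 0.322% in cNK.

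The summed level of both families was also higher in LrNK samples. Beta-tubulin summed to 306 and 294 CPM per kb in LrNK labelled CD8KO and 338, 294 and 373 in LrNK WT, against 194.4 to 211.6 in cNK labelled CD8KO and 196.5 to 217.3 in cNK WT. Alpha-tubulin summed to 172 and 255 CPM per kb in LrNK labelled CD8KO and 169, 268 and 229 in LrNK WT, against 120.4 to 133.2 in cNK labelled CD8KO and 121.3 to 134.5 in cNK WT. The ratio of beta to alpha was 1.78 and 1.15 in LrNK labelled CD8KO and 2.0, 1.1 and 1.63 in LrNK WT, and stayed between 1.57 and 1.72 in cNK samples. The lowest ratios were in the LrNK samples with many detected genes, in which Tuba4a was highest.

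**Figure D3:**
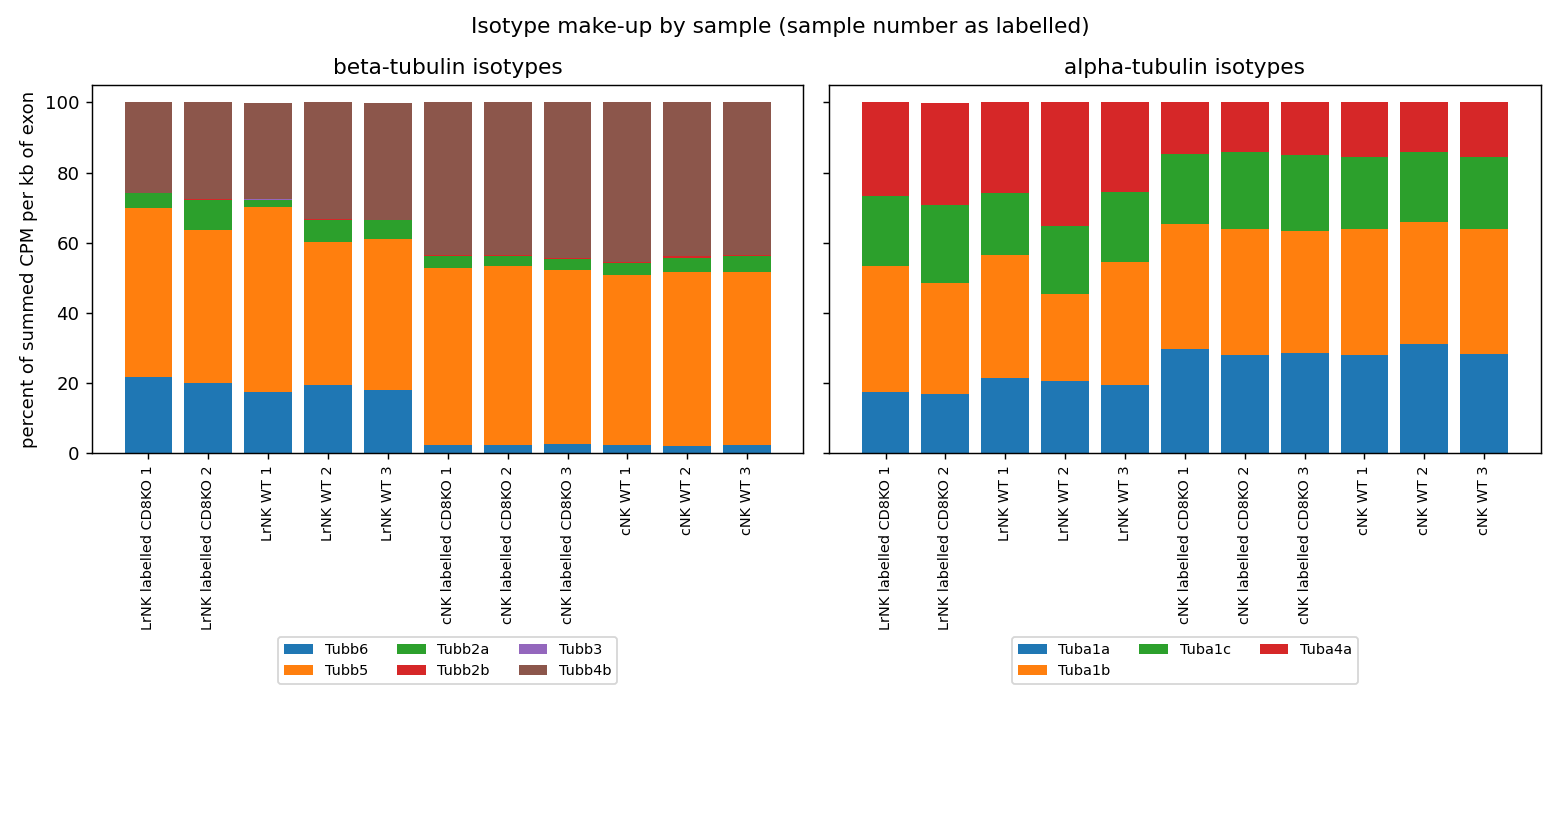
Share of each isotype in the summed CPM per kb of exon of the beta-tubulin members (left) and the alpha-tubulin members (right), 1 stacked bar per sample. Tubb6, at the foot of the left bars, takes 17.5 to 21.6% in LrNK samples and 2.1 to 2.64% in cNK samples, and Tuba4a, at the top of the right bars, takes more in every LrNK sample than in any cNK sample.

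The members were chosen on LrNK against cNK under both labels, with earlier results of these data known. The label effects of Tubb6 are thus not independent of that choice. The label comparison was tested with edgeR, first within LrNK. No member passed an adjusted p under 0.05 in LrNK labelled CD8KO against LrNK WT, where 0 of 16504 genes tested passed (0.0%), 615 had an unadjusted p under 0.05, DESeq2 called 59 and voom 0. Tubb3 was too low to be tested. Tubb6 differed by a log2 of 0.05 ± 0.20 (SE, 95% interval -0.43 to 0.52, adjusted p = 1). Tubb5 differed by -0.13 ± 0.23 (-0.67 to 0.42) and Tuba4a by -0.12 ± 0.43 (-1.14 to 0.90). Tubb4b, the member with the smallest p, differed by -0.39 ± 0.23 (-0.94 to 0.17, edgeR adjusted p = 1), and both LrNK samples labelled CD8KO lay below the LrNK WT samples, as 7.34% of all genes did. Without overlap, it had to be lower under the CD8KO label within each detection set, so that direction adds no support. The log2 difference of Tubb4b was -0.47 between samples with few detected genes (1 labelled CD8KO, 2 WT) and -0.28 between those with many (1 each). Tuba1a, at -0.43 and -0.36, and Tuba4a, at -0.17 and -0.34, were lower in both sets too. For Tubb2a the interval ran from -0.93 to 1.64 and for Tubb2b from -4.30 to 6.07, so changes within these ranges were not excluded with these samples. Tuba1a differed by -0.30 ± 0.32 (-1.07 to 0.46), Tuba1b by 0.08 ± 0.26 (-0.54 to 0.70) and Tuba1c by 0.12 ± 0.37 (-0.77 to 1.00).

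Within cNK the intervals were narrower. No member passed in cNK labelled CD8KO against cNK WT, where 218 of 16619 genes tested did (1.31%). Tubb6 differed by a log2 of 0.05 ± 0.09 (-0.15 to 0.25, adjusted p = 0.878), Tubb5 by 0.02 ± 0.06 (-0.11 to 0.14), Tuba1b by -0.01 ± 0.06 (-0.14 to 0.12), Tubb4b by -0.04 ± 0.06 (-0.16 to 0.08) and Tuba4a by -0.05 ± 0.05 (-0.16 to 0.06). The other alpha-tubulins were as close to 0, Tuba1a at -0.05 ± 0.08 (-0.22 to 0.12) and Tuba1c at 0.03 ± 0.07 (-0.12 to 0.17). Tubb2a came nearest to a call, at -0.35 ± 0.12 (-0.60 to -0.11, edgeR adjusted p = 0.190), the one member with an unadjusted p under 0.05. Its cNK samples labelled CD8KO, at 9.61 to 11.5 CPM, overlapped the WT range of 11.3 to 14.1. Its near-copy Tubb2b lay at -0.36 ± 0.22 (-0.84 to 0.11, adjusted p = 0.525), with all 3 samples labelled CD8KO below the WT samples, as 7.72% of all genes were.

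The difference of the label effect between LrNK and cNK passed for no member either, beside 8 of 19287 genes (0.0415%), and no member had an unadjusted p under 0.05. It was 0.03 ± 0.15 for Tubb6 (-0.30 to 0.35), 0.74 ± 0.56 for Tubb2a (-0.50 to 1.97, and 0.092 without LrNK labelled CD8KO 2) and -0.32 ± 0.18 for Tubb4b (-0.72 to 0.09, adjusted p = 0.735). The median log2 difference over tested members was 0.05 in LrNK, -0.04 in cNK and -0.01 for the difference, beside 0.018, -0.002 and 0.067 over all genes, and the last was 0.03 without Tubb3, which is at 0 in cNK. The level of Tubb6 differed between labels by less than the SD between samples in both cell types.

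**Figure D4:**
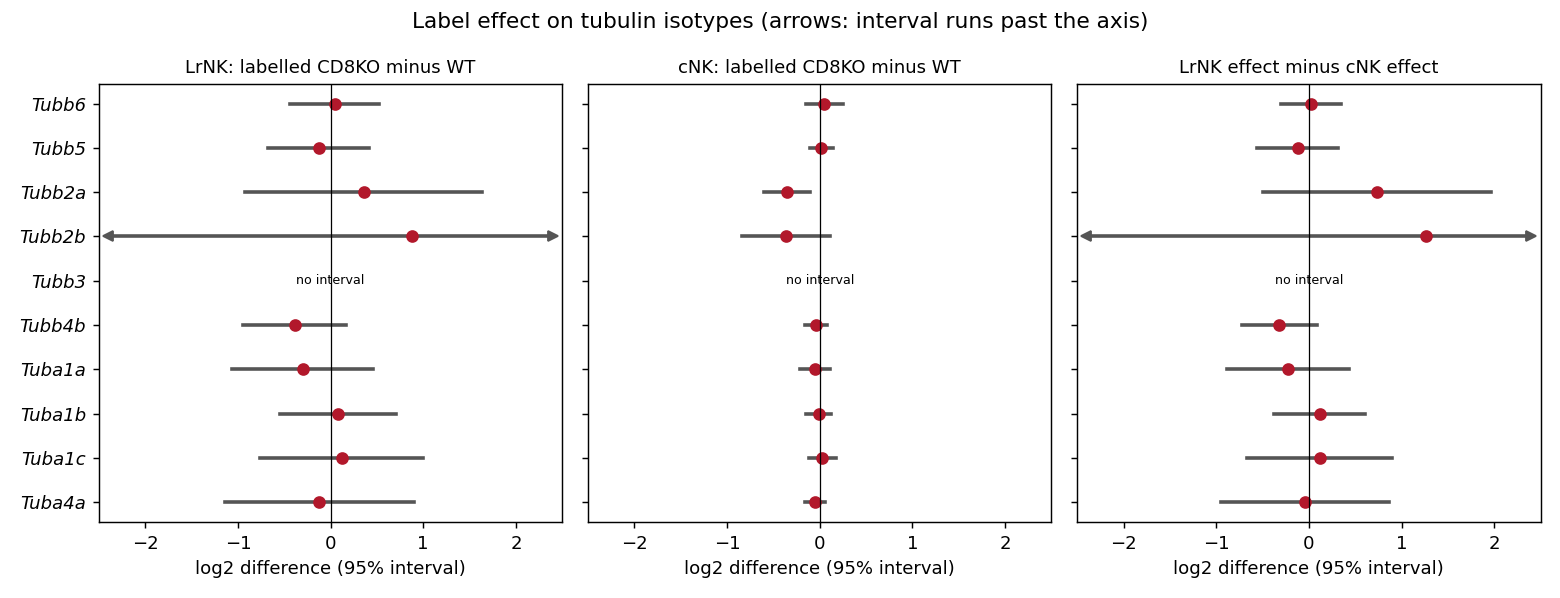
Log2 difference with its 95% interval for each isotype, for LrNK labelled CD8KO minus LrNK WT (left), cNK labelled CD8KO minus cNK WT (middle) and the LrNK effect minus the cNK effect (right), from edgeR fits. The interval of Tubb2a in cNK, from -0.60 to -0.11, is the one that leaves out 0, at an adjusted p of 0.190, and intervals of LrNK are wider than those of cNK.

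Genes that act on tubulin were described from lists. Of the other tubulin genes, 7 of 10 had enough counts, and none was called for either label effect or their difference. Tubg1, the gamma-tubulin that nucleates microtubules, had 39.8 and 29.7 CPM in LrNK labelled CD8KO, 41.5, 39.0 and 33.2 in LrNK WT, 25.7 to 27.7 in cNK labelled CD8KO and 24.3 to 26.6 in cNK WT. It lay higher in every LrNK sample. Tubd1, the delta-tubulin of centrioles, had 4.23 and 3.80 CPM in LrNK labelled CD8KO, 3.55, 3.18 and 3.61 in LrNK WT, 5.87 to 7.17 in cNK labelled CD8KO and 6.27 to 6.71 in cNK WT. Tuba8, an alpha-tubulin named here after its values were seen, had 0 and 20 counts in LrNK labelled CD8KO and 0 in each LrNK WT sample, against 86 to 181 in cNK labelled CD8KO and 166 to 195 in cNK WT. Tubb1, the platelet beta-tubulin, likewise named after its values were seen, had 0 and 80 counts in LrNK labelled CD8KO and 0, 27 and 74 in LrNK WT, against at most 4 in each cNK sample.

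The list of tubulin folding (24 genes, all tested) holds the CCT chaperonin, prefoldin and the cofactors that fold and join the subunits. Cct6a, a CCT subunit, had 95.4, 97.2 and 90.1 CPM in cNK labelled CD8KO, against 125, 122 and 103 in cNK WT, without overlap. It fell by 0.32 ± 0.07 on the log2 scale (adjusted p = 0.0451) in cNK labelled CD8KO, and was the one gene of these lists called by label in cNK. The call was lost when any sample other than cNK WT 3 was left out (adjusted p = 0.0699 to 0.261) and in the fit of all 4 groups (adjusted p = 1.0), with the log2 difference at -0.41 to -0.27 throughout. Cct2 and Cct7, the most abundant of the list, had -0.15 ± 0.05 (adjusted p = 0.215) and -0.09 ± 0.06 (adjusted p = 0.600) in the same comparison. Between cell types, 2 of the 24 lay wholly higher and 8 wholly lower in LrNK for the CD8KO label (22.1% and 36.6% of all genes), and 1 and 5 for WT (14.8% and 30.2%).

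All 4 genes of tubulin mRNA autoregulation, the pathway that degrades tubulin mRNA when free dimers are plentiful, lay wholly lower in LrNK for the CD8KO label and 3 of 4 for WT, beside 36.6% and 30.2% of all genes. Ttc5, which recognises nascent tubulin chains on the ribosome, had 65.7 and 52.9 CPM in LrNK labelled CD8KO and 64.6, 60.99 and 64.9 in LrNK WT, against 76.0 to 83.6 in cNK labelled CD8KO and 80.7 to 84.1 in cNK WT. Cnot11, the subunit of the CCR4-NOT deadenylase that works with it, had 47.2 and 54.2 CPM in LrNK labelled CD8KO and 66.6, 57.2 and 45.5 in LrNK WT, against 59.7 to 62.5 in cNK labelled CD8KO and 57.2 to 62.7 in cNK WT. No gene of this list was called by label in either cell type.

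The remaining lists gave no call by label in either cell type or for the difference. Of 17 tail enzymes with enough counts (23 listed), 0 lay wholly higher and 13 wholly lower in LrNK for the CD8KO label, and 1 and 6 for WT. Ttll4, a glutamylase of tubulin tails, had 20.8 and 30.6 CPM in LrNK labelled CD8KO and 27.5, 35.0 and 8.79 in LrNK WT, against 60.4 to 65.4 in cNK labelled CD8KO and 60.4 to 74.2 in cNK WT. Sirt2, a tubulin deacetylase, had log2 differences of -0.19 for the CD8KO label and -0.12 for WT. Of 26 microtubule-associated proteins, 3 lay wholly higher and 14 wholly lower for the CD8KO label, and 3 and 13 for WT. Map4, the main microtubule-binding protein outside neurons, had 145 and 152 CPM in LrNK labelled CD8KO and 172, 128 and 111 in LrNK WT, against 270 to 282 in cNK labelled CD8KO and 277 to 290 in cNK WT. Map7d1, which helps load kinesin onto microtubules, had 320 and 297 CPM in LrNK labelled CD8KO and 253, 204 and 220 in LrNK WT, against 355 to 391 in cNK labelled CD8KO and 365 to 392 in cNK WT. Its label effect in LrNK was 0.47 ± 0.20 (adjusted p = 1).

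Of 12 severing and depolymerising genes, 1 lay wholly higher and 6 wholly lower in LrNK for the CD8KO label, and 0 and 3 for WT. Spast, a severing enzyme, had log2 differences of -0.52 for the CD8KO label and -0.19 for WT. None of 11 genes of the gamma-tubulin ring list lay wholly higher, while 9 for the CD8KO label and 7 for WT lay wholly lower. Akap9, which anchors nucleation at the Golgi, had -0.90 for the CD8KO label and -0.98 for WT, and Pcnt, a centrosome scaffold, had -0.26 and -0.70. Of 23 motors of granule transport, 3 lay wholly higher and 10 wholly lower for the CD8KO label, and 3 and 9 for WT. Dync1h1, the dynein heavy chain, had -0.37 and -0.89, and Dctn1, the dynactin subunit that binds dynein, had 0.03 and -0.06. These counts stand beside 22.1% of all genes wholly higher and 36.6% wholly lower in LrNK for the CD8KO label, and 14.8% and 30.2% for WT, and the lists' part in the level of any isotype was not tested.

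Because Tubb5 and other isotypes are used in mitosis, 28 genes of the cell cycle were summed. The sum was 898.5 to 910.4 CPM in LrNK labelled CD8KO and 883.0 to 1000 in LrNK WT, against 892.1 to 945.8 in cNK labelled CD8KO and 879.8 to 926.8 in cNK WT, so the ranges overlapped. That overlap rests on Pcna for the CD8KO label: without it, a setting chosen after the data were seen, the sum was 551.3 to 640.0 CPM in LrNK labelled CD8KO and 435.0 to 735.6 in LrNK WT, against 721.9 to 781.3 in cNK labelled CD8KO and 694.6 to 735.6 in cNK WT. Of the 28, 2 lay wholly higher and 12 wholly lower in LrNK for the CD8KO label (22.1% and 36.6% of all genes), and 1 and 7 for WT (14.8% and 30.2%). Pcna, the replication clamp, had log2 differences of 1.02 for the CD8KO label and 1.01 for WT, and Mcm6, a subunit of the replicative helicase, had -0.65 and -0.63.

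The genes whose profile over the 11 samples was most like that of Tubb6 were found by the root mean square difference of log2(CPM + 0.5) values centred on each gene's mean, among 12834 genes. Slc16a10, a transporter of aromatic amino acids and thyroid hormone, was closest at 0.196, with mean levels of 99.0 CPM in LrNK labelled CD8KO, 94.8 in LrNK WT, 9.48 in cNK labelled CD8KO and 7.20 in cNK WT. Cish, an inhibitor of cytokine signalling, was at 0.214, with 82.4, 114, 8.29 and 8.76 CPM in the same groups. Adam8, a membrane metalloprotease, was at 0.223, with 55.2, 59.0, 3.97 and 3.66 CPM. Inpp4b, a phosphoinositide phosphatase, was at 0.241, and Tcrg-C1, a gamma constant region of the T cell receptor, at 0.253. Of the 8 other members with a mean of at least 1 CPM, the closest were Tuba4a, at 1.008, with 704 genes closer to Tubb6, and Tubb2a, at 1.337, with 1372 closer.

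Transcripts of other cells moved with LrNK against cNK and varied among LrNK samples. The 12 neutrophil and monocyte markers summed to 3786 to 11190 CPM in LrNK labelled CD8KO and 1724 to 5708 in LrNK WT, against 1082 to 1164 in cNK labelled CD8KO and 1124 to 1252 in cNK WT. Ly6g and Retnlg, which define neutrophils, were at 0 in LrNK WT, and Retnlg in cNK WT, while Lyz2 averaged 4690 CPM in LrNK labelled CD8KO, 1970 in LrNK WT, 16.3 in cNK labelled CD8KO and 14.8 in cNK WT. By sample, the sum of the 12 markers was 11190 and 3786 CPM in LrNK labelled CD8KO 1 and 2. Tubb6 had 161 and 143 CPM in these samples. In LrNK WT 1, 2 and 3 the sum was 3872, 1724 and 5708 CPM, and Tubb6 had 144, 139 and 164. The link between them was not tested. The 8 erythroid markers summed to 327.5 to 3276 and 153.7 to 1159 CPM in the LrNK groups, against 3.601 to 5.698 and 3.131 to 5.661 in the cNK groups. The 10 hepatocyte markers summed to 40.27 to 60.73 and 31.33 to 63.93 CPM in LrNK, against 1.584 to 1.76 and 1.375 to 2.149 in cNK, where Ttr, Serpina1a, Fgb and Tat were at 0 under both labels and Alb under the CD8KO label.

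The 10 T cell markers summed to 598.7 to 777.1 CPM in LrNK labelled CD8KO and 806.5 to 1080 in LrNK WT, where Cd8b1 was at 0, against 473.0 to 488.5 and 437.5 to 468.1 in the cNK groups. Most of each sum was Trbc1 and Trbc2, at means of 525 and 340 CPM in LrNK WT and 295 and 89.2 in cNK WT. Cd3e averaged 32.4 and 25.3 CPM in the LrNK groups and 5.06 and 3.63 in the cNK groups. Lef1 was lower in LrNK, at 14.0 and 9.66 against 52.1 and 47.7 CPM. Of the 10, 7 lay wholly higher and 1 wholly lower in LrNK for the CD8KO label (22.1% and 36.6% of all genes). For WT these were 8 and 1 (14.8% and 30.2%). The 11 B cell markers summed to 319.9 to 454.4 and 242.6 to 365.0 CPM in LrNK, against 232.0 to 245.2 and 181.3 to 197.4 in cNK. The 10 Kupffer cell markers overlapped between cell types, at 213.1 to 439.1 and 112.1 to 334.4 CPM in LrNK, against 166.2 to 251.7 and 173.2 to 225.0 in cNK, with Clec4f at 0 in cNK. The sum of the 8 endothelial markers overlapped as well, from 88.34 to 143.9 CPM in LrNK and from 97.88 to 111.1 in cNK. Most of it was Pecam1, at means of 76.3 and 85.2 CPM in the LrNK groups and 99.4 and 100 in the cNK groups. Kdr averaged 11.2 CPM in LrNK labelled CD8KO and 3.33 in LrNK WT, against 0.133 and 0.102 in cNK. Of the 8, 6 lay wholly higher and 1 wholly lower in LrNK for the CD8KO label (22.1% and 36.6% of all genes). For WT these were 2 and 1 (14.8% and 30.2%). The 8 stellate and fibroblast markers stayed between 1.346 and 27.15 CPM in LrNK and between 0.4527 and 1.555 in cNK, with Des at 0 in LrNK, Dcn in LrNK WT and cNK WT, and Lrat in cNK labelled CD8KO. The 7 platelet markers, of interest because platelets are rich in Tuba4a and Tubb1, summed to 2.451 to 6.541 CPM in LrNK labelled CD8KO and 3.361 to 6.25 in LrNK WT, against 4.074 to 4.404 and 3.631 to 3.874 in cNK. Most of the cNK sum was Itga2b, at means of 3.71 and 3.4 CPM, against 1.59 and 1.12 in LrNK. Pf4 averaged 1.41 CPM in LrNK labelled CD8KO and 2.73 in LrNK WT, against 0.0233 and 0.0561 in cNK. Of 4 platelet markers with enough counts, 3 lay wholly higher and 1 wholly lower in LrNK for the CD8KO label (22.1% and 36.6% of all genes). For WT these were 1 and 2 (14.8% and 30.2%). Gp1bb was at 0 in LrNK under both labels, Gp9 and Treml1 in LrNK WT, and Treml1 in cNK labelled CD8KO. LrNK labelled CD8KO 2 and LrNK WT 2, with the most Tuba4a in their groups, had platelet sums of 6.541 and 6.035 CPM, against 2.451 in LrNK labelled CD8KO 1 and 3.361 and 6.25 in LrNK WT 1 and 3. The part of these transcripts in the isotype values was not tested.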

How the data were processed

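Per the labels, RNA was extracted with Trizol from sorted cells and made into libraries with the Illumina TruSeq kit. The deposited files hold raw counts per Ensembl gene, 1 file per library. HISAT2 2.1.0 and the GRCm38 build appear in the submitters' processing notes, while the sources used here do not give a counting tool or annotation release. GENCODE M21 matched 54495 of 54532 identifiers.

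Libraries under a chi-square of 4 per degree of freedom were summed. CPM uses library totals. Genes were tested with edgeR 4.0.16 in R 4.3.3 (quasi-likelihood test, TMM scaling, filterByExpr with minimum count 10 and total 15, Benjamini-Hochberg over all genes tested, called under 0.05). Each label effect was fitted on its own groups and the difference on all 4. DESeq2 1.42.0 and voom of limma 3.58.1 were alternatives. The procedure was tested on simulated data. Few detected genes means under 16000. "Wholly" higher or lower means that the groups' CPM ranges did not overlap.

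The members and lists were chosen with earlier results of these data known. Named were all members, Cd8a, called list genes, the 2 most abundant genes per list, and the 5 genes most like Tubb6 with a mean of at least 1 CPM. A few items that these rules take in are not reported here. Replicate numbers were not used as pairs in the main fits.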

Additional observations from a re-analysis of the deposited data

How the results depend on the processing

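No member was called by label or for the difference in any alternative, with adjusted p-values of 0.264 to 1.0 in LrNK, 0.066 to 1.0 in cNK and 0.108 to 1.0 for the difference. Over all genes, the 0 calls in LrNK became 259 without the filter on low counts, 22 with all libraries separate, 59 with DESeq2, 180 with the replicate block and 138 with all 4 groups in 1 fit. Leaving out 1 sample gave 0 to 0. The 218 calls in cNK became 590 without the filter, 514 with DESeq2, 332 with voom, 355 with the replicate block and 1 with all 4 groups fitted. They were 71 to 254 with 1 sample left out, 71 without cNK labelled CD8KO 2 and 90 without cNK WT 1. The 8 calls for the difference became 68 with separate libraries, 337 with DESeq2 and 405 with the block. They were 5 to 645 with 1 sample left out: 645 without LrNK WT 2, 253 without LrNK labelled CD8KO 2, 55 without LrNK WT 3, 16 without LrNK WT 1 and 5 without any 1 cNK sample. The cause was not tested. Deviations from the group means correlated at 0.30 and 0.49 between same-numbered LrNK samples, against -0.49 to 0.2 for unlike numbers. LrNK labelled CD8KO had 2 samples, whose deviations from their mean are exact opposites, so the correlations of 1 mirror those of the other. The values for like and unlike numbers in LrNK are thus not independent of one another. In cNK the values were 0.02, 0.01 and 0.05, against -0.07 to 0.05. LrNK samples numbered 1 had few detected genes under both labels and those numbered 2 many. A pairing by number and the number of detected genes thus cannot be told apart in LrNK. The main fits did not take the numbers as pairs.

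Some label effects changed sign. Tuba1b in cNK was 0 with voom. For the difference, Tubb6 was -0.009 with separate libraries and -0.023 with library totals only, a setting added after the data were seen, and Tuba4a was 0.17 with voom. With 1 sample left out, LrNK label effects ranged from -0.009 to 0.11 for Tubb6, -0.28 to 0.80 for Tubb2a, -3.48 to 2.01 for Tubb2b, -0.22 to 0.33 for Tuba1b, -0.38 to 0.49 for Tuba1c and -0.61 to 0.31 for Tuba4a. In cNK they ranged from -0.025 to 0.074 for Tubb5, -0.11 to 0.063 for Tuba1a, -0.065 to 0.035 for Tuba1b and -0.049 to 0.073 for Tuba1c. The difference ranged from -0.06 to 0.084 for Tubb6, 0.092 to 1.15 for Tubb2a, -3.12 to 2.4 for Tubb2b, -0.60 to 0.036 for Tuba1a, -0.18 to 0.33 for Tuba1b, -0.38 to 0.46 for Tuba1c and -0.53 to 0.39 for Tuba4a. A group left with 1 sample was assumed to vary like the others in the fit.

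Between cell types, the log2 difference of Tubb6 stayed at 3.69 to 3.79 for the CD8KO label and 3.68 to 3.78 for WT with 1 sample left out. Members wholly higher in LrNK then numbered 7 to 9 for the CD8KO label and 6 to 9 for WT. Leaving out a sample can only narrow a range, so these counts could not fall below the 7 and 6 of all samples. The Tubb6 share of beta-tubulin in LrNK WT was 19.8% rather than 18.3% with the longest transcript as length. Depth limits the precision of Tubb2b and Tubb3 in samples with 1 to 4 counts, and the gaps between LrNK samples in these genes were not tested. The label intervals were wider in LrNK, where the biological coefficient of variation was 98.2%, against 9.6% in cNK.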
